A study of Mus musculus with 6 samples.

Results

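The potassium channel genes of the mouse were followed through promoter-anchored contact lists of R1 cells, a line of mouse embryonic stem cells (mESCs) grown on gelatin with LIF. The genes were all those named on promoter fragments of HiCap replicate 1 or replicate 2 whose symbol starts with Kcn, further letters and a digit, without Kcnq1 and its antisense transcript Kcnq1ot1. This gave 89 of 21202 listed genes, of which replicate 1 named 86, replicate 2 named 83 and both named 80. HiCap joins Hi-C, the ligation of DNA ends that lie close together in fixed nuclei, to sequence capture of promoters, and was carried out on 2 biological replicates after digestion with MboI, which cuts at 4 bases. Hi-C of the same line, without capture, was listed once for 2 pooled replicates. All libraries came from untreated cells of 1 genotype, so there was no treatment to compare, and the lists hold contacts and no expression, so the cell type could not be checked against marker genes.

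Potassium channels are membrane pores that let potassium leave or enter a cell down its gradient, and they set the resting potential and end electrical impulses in nerve, muscle and gland. Voltage-gated channels open on depolarisation, inward rectifiers pass current best near rest, two-pore domain channels carry leak currents, and calcium- or sodium-activated channels open on a rise of those ions inside the cell. Accessory subunits form no pore but change the gating or traffic of the channels they join. Many of the genes are known best from excitable tissues, which the cells studied here are not.

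An interaction was a distinct pair of a promoter fragment and a distal region, which was a single MboI fragment in 206 of 221 called pairs. The authors listed interactions with at least 3 read pairs in a replicate, and an interaction was called when the same promoter fragment and the same distal region stood in both replicate lists. Of the 125 listed promoter fragments of the potassium channel genes, 118 held a transcript start of the same gene in the annotation of mm9, and no called interaction came from the 3 fragments over 10 kb from one. The lists hold no numbers of read pairs, so the depth behind an interaction is unknown. Intervals are exact binomial 95% intervals. They describe counting error alone, since contacts of one promoter depend on each other.

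Called distal regions are short pieces of DNA, and 7 of them are shown because they belong to 7 of the 8 genes with the most calls (Kcnab3 is not shown). Each is the plus strand of mm9 from one MboI site to the next, with the sites in capitals, except that of Kcnk7, of which the first 300 of 434 bases are given. Within each gene, only regions outside annotated exons and near the promoter were eligible. Short fragments were taken first, then those in Hi-C, then those linked to the fewest genes. By this choice none of the 7 overlapped an exon, as 64 of the 221 called regions did. Each was linked to no other gene, and those of Kcnk7 and Kcnk6 were also paired with their promoters in Hi-C. These traits follow the choice and do not describe called regions at large. The Kcnk7 region lies in an intron of Ehbp1l1 and the Kcnj13 region in an intron of Gigyf2, the Kcng4 region is intergenic, and the others lie in introns of their own genes. Of windows of 30 bases taken every 10 bases, 3 of 27 in the Kcng4 region recurred elsewhere on its chromosome and none did in the other regions.
Kcnk7, chr19:5713395-5713694: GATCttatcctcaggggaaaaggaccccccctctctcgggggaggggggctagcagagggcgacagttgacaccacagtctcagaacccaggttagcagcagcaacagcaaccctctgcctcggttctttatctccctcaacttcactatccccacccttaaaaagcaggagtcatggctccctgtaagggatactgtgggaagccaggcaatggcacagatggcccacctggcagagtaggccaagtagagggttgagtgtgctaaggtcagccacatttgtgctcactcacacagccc
Kcnk6, chr7:30013316-30013599: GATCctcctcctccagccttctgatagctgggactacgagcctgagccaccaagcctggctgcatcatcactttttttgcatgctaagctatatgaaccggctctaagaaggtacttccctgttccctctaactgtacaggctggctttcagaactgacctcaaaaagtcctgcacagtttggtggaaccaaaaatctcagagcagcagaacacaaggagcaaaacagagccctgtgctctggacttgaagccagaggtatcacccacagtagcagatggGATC
Kcng4, chr8:122162874-122163168: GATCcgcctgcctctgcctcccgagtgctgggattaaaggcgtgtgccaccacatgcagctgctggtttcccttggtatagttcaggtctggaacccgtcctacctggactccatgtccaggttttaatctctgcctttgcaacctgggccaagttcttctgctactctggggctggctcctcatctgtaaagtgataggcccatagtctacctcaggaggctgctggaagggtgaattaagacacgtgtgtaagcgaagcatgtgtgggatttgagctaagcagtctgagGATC
Kcnj12, chr11:60852487-60852781: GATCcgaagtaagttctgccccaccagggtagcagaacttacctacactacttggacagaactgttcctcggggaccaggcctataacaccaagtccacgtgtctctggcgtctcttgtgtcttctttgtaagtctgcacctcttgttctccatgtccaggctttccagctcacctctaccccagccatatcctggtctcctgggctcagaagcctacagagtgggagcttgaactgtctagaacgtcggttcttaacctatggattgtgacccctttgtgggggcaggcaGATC
Kcnj13, chr1:89277875-89278173: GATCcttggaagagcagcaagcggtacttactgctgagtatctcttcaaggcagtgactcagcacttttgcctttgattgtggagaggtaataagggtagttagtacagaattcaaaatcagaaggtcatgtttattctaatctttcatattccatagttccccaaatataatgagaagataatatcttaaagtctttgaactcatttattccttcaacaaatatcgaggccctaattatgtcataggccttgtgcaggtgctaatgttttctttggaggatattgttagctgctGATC
Kcnip1, chr11:33754225-33754484: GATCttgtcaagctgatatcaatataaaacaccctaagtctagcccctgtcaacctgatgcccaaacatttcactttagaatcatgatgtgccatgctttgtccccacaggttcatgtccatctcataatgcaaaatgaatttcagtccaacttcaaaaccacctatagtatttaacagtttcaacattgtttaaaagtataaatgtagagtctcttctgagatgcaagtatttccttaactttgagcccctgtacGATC
Kcnk1, chr8:128521056-128521309: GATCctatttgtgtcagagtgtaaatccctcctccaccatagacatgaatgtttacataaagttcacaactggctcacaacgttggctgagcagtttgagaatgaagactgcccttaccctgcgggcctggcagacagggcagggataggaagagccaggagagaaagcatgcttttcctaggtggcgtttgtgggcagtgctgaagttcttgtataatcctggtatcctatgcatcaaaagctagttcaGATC

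Replicated interactions were found at about as many potassium channel genes as lacked them. A call was found for 45 of the 89 genes (50.6%, interval 39.8 to 61.3%), against 60.7% of all listed genes, a value inside that interval. Of the 80 genes in both lists, 45 had a call, a lower share than the 74% of all genes in both. This gap was wider than that among genes in either list, and no interval was computed for it. Of the 44 genes without a call, 35 were in both replicate lists, 6 in replicate 1 alone and 3 in replicate 2 alone. The 45 genes held 221 called interactions with as many distinct distal regions. A potassium channel gene had a median of 1 and a mean of 2.48 called distal regions, against a median of 1 and a mean of 4.47 over all listed genes. The calls were unevenly spread, since 5 genes, Kcnk7, Kcng4, Kcnj12, Kcnj13 and Kcnip1, together had 91 of the 221, while 14 genes had 1 each.

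The replicate lists named many more contacts than they shared. Potassium channel genes had 1382 interactions in replicate 1 and 1961 in replicate 2. Those of replicate 1 were found again in replicate 2 in 16.0% of cases (interval 14.1 to 18.0%), against 19% over all listed genes. Those of replicate 2 were found again in replicate 1 in 11.3% (interval 9.90 to 12.8%), against 17.1% over all listed genes. Both values of the potassium channel genes lay below those of all listed genes by more than counting error. Replicate 1 had more distal regions than replicate 2 for 43 genes, fewer for 45 and as many for 1.

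A near miss was common among the genes without a call. When distal regions of the same promoter within 1 kb of each other counted as shared, 64 of 89 genes had a call. That was 71.9% (interval 61.4 to 80.9%), and the 69.2% of all listed genes lay inside the interval. Of the interactions of replicate 1, 40.4% (interval 37.8 to 43.0%) then had a match, against 48% over all listed genes. The 19 genes gained included Kcna5, the Kv1.5 channel of heart and smooth muscle, with 22 distal regions in replicate 1, 10 in replicate 2 and 5 of the 22 within 1 kb of one in replicate 2. They also included Kcnk2, the stretch-sensitive TREK-1 channel, with 27 and 7 regions and 5 near matches, and Kcnma1, the pore of the large-conductance BK channel, with 7 and 10 regions and 3 near matches. Near matches were counted among the regions of replicate 1. Kcnj11, the pore of the ATP-sensitive channel of the beta cell, had 22 regions in replicate 1, 7 in replicate 2 and 2 near matches. Kcnd1, a Kv4 channel, had 35 regions in replicate 2 but only 3 in replicate 1, of which 1 was a near match.

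**Figure D1:**
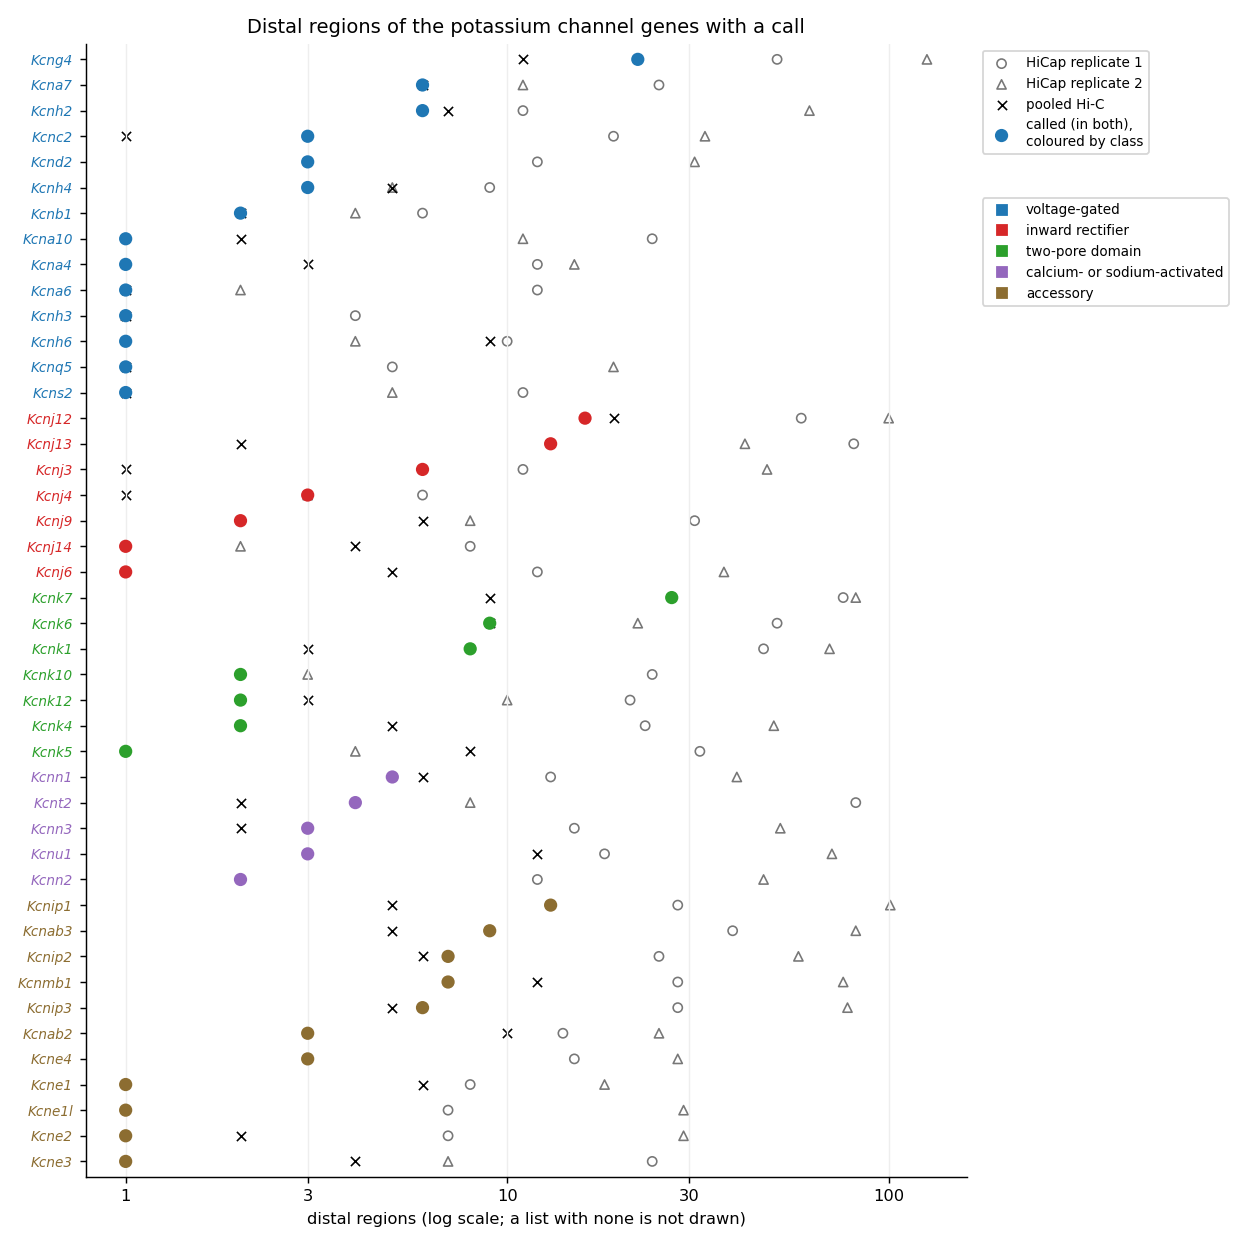
Number of distal regions (log scale) of 44 of the 45 potassium channel genes with a call, grouped by channel class: open circles are HiCap replicate 1, open triangles replicate 2, crosses the pooled Hi-C list, and filled points the regions called in both replicates. Kcnk7 has the most called regions (27), 14 genes have 1, and the called number of every gene drawn is below or equal to both replicate numbers.

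The 5 classes differed in how many of their genes had a call, but with intervals that overlapped. A call was found for 15 of 38 voltage-gated genes (39.5%, interval 24.0 to 56.6%), 7 of 15 inward rectifier genes (46.7%, 21.3 to 73.4%), 7 of 12 two-pore domain genes (58.3%, 27.7 to 84.8%), 5 of 8 calcium- or sodium-activated genes (62.5%, 24.5 to 91.5%) and 11 of 16 accessory genes (68.8%, 41.3 to 89.0%). Only the interval of the voltage-gated genes lay wholly below the 60.7% of all listed genes. Counted with the channels they join, the accessory subunits brought the voltage-gated class to 25 of 50 genes (50%) and the calcium- or sodium-activated class to 6 of 12. The order of the classes therefore rests on where the accessory subunits are placed. Two-pore domain genes had the highest mean number of called regions, 4.25 per gene, against 3.25 for accessory, 2.80 for inward rectifier, 2.13 for calcium- or sodium-activated and 1.55 for voltage-gated genes.

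**Figure D2:**
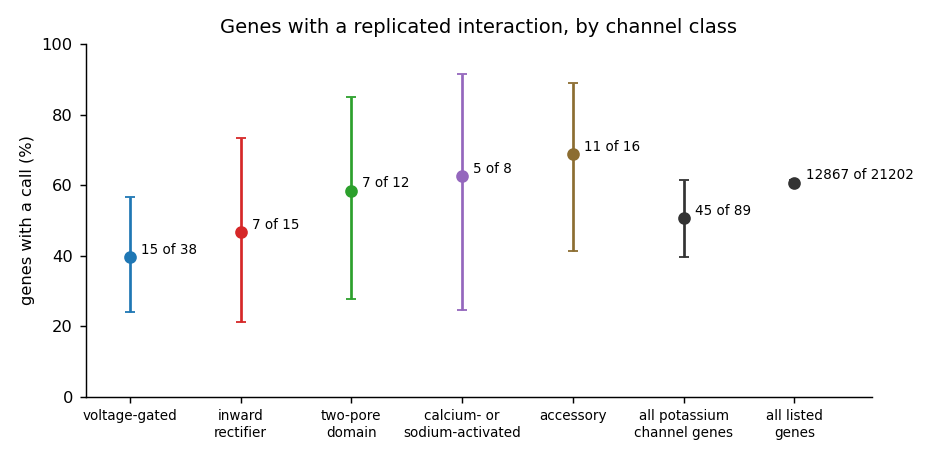
Share of genes with at least 1 called interaction in the 5 channel classes, in all 89 potassium channel genes and in all 21202 listed genes, with exact binomial 95% intervals and the numbers of genes. The intervals of the 5 classes overlap, and that of the voltage-gated class (24.0 to 56.6%) ends below the 60.7% of all listed genes.

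Among the pore-forming voltage-gated genes, calls were scattered over the subfamilies. Of the 8 Kv1 genes (Kcna), 4 had a call, and of the 8 genes of the EAG, ERG and ELK channels (Kcnh), also 4. Both shares are 50%, against 50.6% of all potassium channel genes and 60.7% of all listed genes. Kcnh2, the ERG channel that repolarises the heart, had 11 distal regions in replicate 1, 62 in replicate 2 and 6 called. Kcna7, a Kv1 channel, had 25 in replicate 1 against 11 in replicate 2, and 6 called. Kcnh2 thus had the longer list in replicate 2, and Kcna7 in replicate 1. The Kv3 genes (Kcnc) and the Kv4 genes (Kcnd) had 1 called gene of 3 each.

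The voltage-gated gene with the most calls makes no channel alone. Kcng4 encodes Kv6.4, an electrically silent subunit that modifies Kv2 channels. Its promoter fragment, chr8:122158963-122159846, had 51 distal regions in replicate 1, 126 in replicate 2 and 11 in Hi-C. Of these, 22 were called, which were 22 of the 59 calls of the class. They covered a stretch of 55.4 kb, 21 lay within 25 kb of the promoter, 10 in Kcng4 itself, 11 in intergenic DNA and 1 in Wfdc1, and 13 of them adjoined another called region end to end. The other 3 genes of the subfamily, Kcng1, Kcng2 and Kcng3, had no call, as had Kcnf1, Kcnv1 and Kcnv2, which are silent subunits too. Kcns2 had 1.

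The inward rectifiers had 42 calls in 7 of 15 genes, of which 29 belonged to Kcnj12 and Kcnj13. Kcnj12, the Kir2.2 channel of heart and neurons, had 59 distal regions in replicate 1, 100 in replicate 2 and 19 in Hi-C, of which 16 were called. It has 2 listed promoter fragments, and 15 of the calls belonged to the one inside the gene, chr11:60878219-60879369, and 1 to chr11:60836033-60836766. Of the 16, 9 lay within Kcnj12 and 1 was 162 kb away in Gm16515, with 3 genes in between. All 16 were linked to Kcnj12 alone, and no other listed gene had a promoter within 50 kb of either fragment.

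Kcnj13, the Kir7.1 channel of retinal pigment epithelium and choroid plexus, lies inside Gigyf2 on chromosome 1. It had 81 distal regions in replicate 1, 42 in replicate 2 and 2 in Hi-C, with 13 called. The list of replicate 1 was longer, and all 13 called regions lay inside Gigyf2, 3 of them in Kcnj13 as well, at 2.93 to 28.3 kb from the promoter. None of them was paired with the Gigyf2 promoter or that of any other gene. Kcnj3, a subunit of the G-protein-gated channel that slows the heart, had 11, 48 and 6 regions in replicate 1, in replicate 2 and called. The genes for Kir2.1 (Kcnj2), for ROMK of the kidney (Kcnj1) and for the glial Kir4.1 (Kcnj10) had none.

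Two-pore domain genes had 51 calls in 7 of 12 genes. Kcnk7, a member of the TWIK branch that gives no current when expressed alone, had more called regions than any other potassium channel gene. Its promoter fragment, chr19:5704219-5704745, had 76 distal regions in replicate 1, 82 in replicate 2 and 9 in Hi-C, and 27 were called, which placed it at rank 581 of 21202 listed genes. Of the 27, 20 lay within 25 kb, where they fell in Map3k11 on the upstream side and in Kcnk7 and Ehbp1l1 on the downstream side, and 15 adjoined another called region. The remainder reached 117 kb upstream and 73.3 kb downstream over the promoters of 6 and 5 other genes. In all, 10 of the 27 were linked to Kcnk7 alone.

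Kcnk6 and Kcnk1 encode TWIK-2 and TWIK-1. Kcnk6 had 51 distal regions in replicate 1, 22 in replicate 2 and 9 in Hi-C, with 9 called, all within 12.5 kb of the promoter. Kcnk1 had 47 in replicate 1, 70 in replicate 2 and 3 in Hi-C, with 8 called, of which 7 lay within 30.4 kb. Replicate 1 listed more for Kcnk6 and replicate 2 more for Kcnk1. Kcnk5, the TASK-2 channel of the kidney, had 32 regions in replicate 1 and 4 in replicate 2, and 1 was called. Kcnk9, the TASK-3 channel, and Kcnk15 had 1 and 3 regions in replicate 1 and none in replicate 2.

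The calcium- or sodium-activated class had the fewest calls, 17 in 5 of 8 genes. Kcnn1, a small-conductance SK channel, had 13 distal regions in replicate 1, 40 in replicate 2 and 5 called. Kcnt2, the sodium-activated SLICK channel, had the longest list of any potassium channel gene in replicate 1, 82 regions, but 8 in replicate 2 and 4 called. Its surroundings held 36.3% G+C, against a median of 45.4% over all listed genes. Whether G+C goes with the balance between the replicates was not tested. Over the 89 genes, Spearman's rank correlation of G+C with the log ratio of replicate 1 to replicate 2 regions was 0.14. Over all listed genes it was -0.03. At about 37%, Kcnj13 had the longer list in replicate 1 and Kcnip4 in replicate 2. Kcnn3, another SK channel, had 15, 52 and 3 regions in replicate 1, in replicate 2 and called. Kcnu1, the pore of a sperm channel opened by alkaline pH and grouped here by its relation to BK, had 18, 71 and 3. Its calls at 112 and 150 kb were the longest of the class, and all 3 were shared with promoters of other genes.

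Accessory subunits had 52 calls in 11 of 16 genes. Each of the 5 Kcne genes, single-span subunits, had a call (interval 47.8 to 100%, which holds the 60.7% of all listed genes). They had 7 calls, a mean of 1.4 per gene against 4.47 over all listed genes. Of the 4 Kcnip genes, calcium-binding partners of Kv4 channels, 3 had a call (75%, interval 19.4 to 99.4%). Kcnip1 had 28 distal regions in replicate 1, 101 in replicate 2 and 5 in Hi-C, and all 13 called regions lay in Kcnip1 itself, 12 of them within 25 kb of the promoter fragment chr11:33742084-33743651, and were linked to no other gene. Kcnip2, a subunit of the cardiac transient outward current, had 25, 58 and 7 regions in replicate 1, in replicate 2 and called, and Kcnip3, also a transcriptional repressor, had 28, 78 and 6. Kcnip4 had 2 in replicate 1 and 28 in replicate 2, with none called.

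Kcnab3 and Kcnmb1 were the beta subunits with the most calls. Kcnab3, a cytoplasmic subunit of Kv1 channels, had 39 distal regions in replicate 1, 82 in replicate 2 and 9 called. None of the 9 lay in Kcnab3, 8 were intergenic, and their median distance was 54.8 kb. Kcnmb1, the BK beta subunit of smooth muscle, had 28 in replicate 1, 76 in replicate 2 and 12 in Hi-C, with 7 called. The other 3 BK beta subunits had no call.

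**Figure D3:**
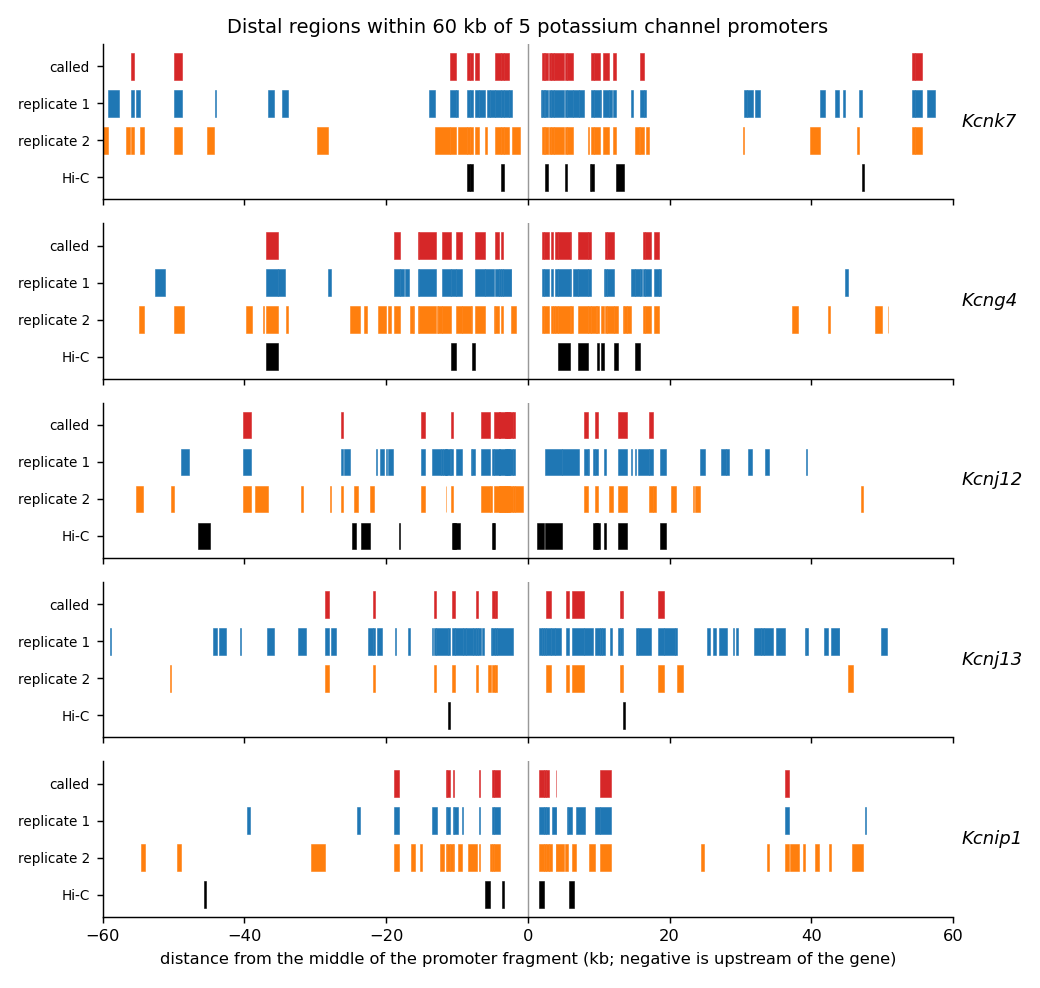
Distal regions within 60 kb of the promoter fragments of Kcnk7, Kcng4, Kcnj12, Kcnj13 and Kcnip1, as distance from the middle of the promoter fragment they were listed with (kb, negative is upstream), with called regions on top, then HiCap replicate 1, replicate 2 and pooled Hi-C. Called regions lie on both sides of each promoter and thin out beyond 20 kb, and Kcnj13 has many more regions in replicate 1 (65 in view) than in replicate 2 (17).

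The called interactions spanned distances near those of all listed genes. Their median distance was 9002 bp (interval 7489 to 10518.5 bp), against 10332.5 bp over all listed genes, a value inside that interval, and 176 of 221 spanned less than 25 kb (79.6%, against 74.4%). In replicate 1 the median was 15670.5 bp for potassium channel genes, against 19765 bp over all listed genes, and in replicate 2 it was 133851 bp, against 100832 bp. Potassium channel genes were thus on the near side of the background in one list and on the far side in the other. Replicate 2 listed 417 of 1961 interactions at over 1 Mb (21.3%, against 19.4% over all listed genes), and replicate 1 listed 1. None of these was called.

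The replicates shared near contacts more often than far ones. From 1 to 5 kb, 70 interactions were called, which were 27.2% of those in replicate 1 and 47.0% of those in replicate 2, against 31.6% and 57.9% over all listed genes. From 5 to 10 kb the shares were 19.4% and 33.6%, against 27.1% and 50.04%. From 25 to 100 kb they were 8.25% and 7.49%, against 13.1% and 15.5%. The potassium channel genes lay below all listed genes in each of these ranges and in both directions. From 100 to 500 kb they were close, with 8.54% and 3.35%, against 7.68% and 4.24%. From 500 kb to 1 Mb, where potassium channels had 2 calls, the shares were 14.3% and 1.31%, against 2.93% and 0.345%.

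**Figure D4:**
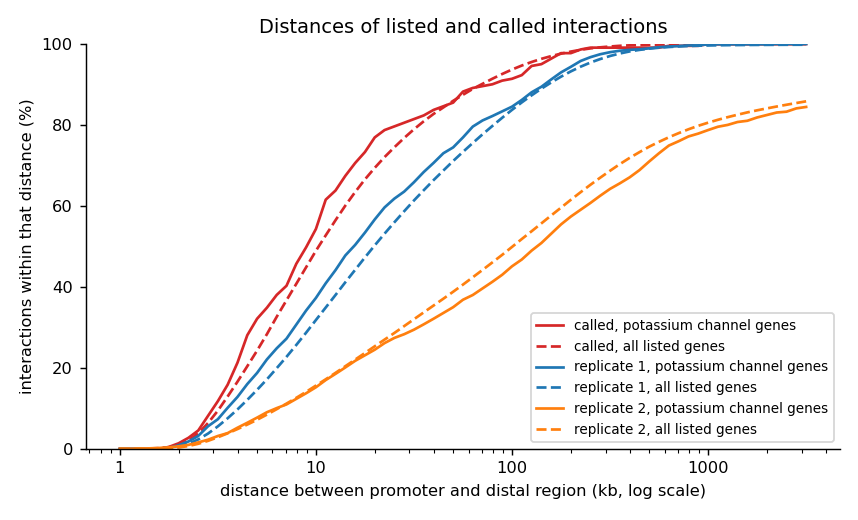
Share of interactions within a given distance (log scale, kb) in the called set, in HiCap replicate 1 and in replicate 2, for potassium channel genes (solid) and all listed genes (dashed). Called interactions of potassium channel genes have a median of 9002 bp, those of replicate 1 of 15670.5 bp and those of replicate 2 of 133851 bp.

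The 19 called interactions over 100 kb came from 14 genes. Of called interactions, 91.4% lay within 100 kb, against 93.7% over all listed genes. The longest joined Kcnk1 to intergenic DNA 934 kb downstream, chr8:129452815-129454314, a region also linked to Irf2bp2, Tomm20 and 2 more genes. The next joined Kcnip2 to Tmem180, 563 kb upstream and past the promoters of 14 genes, in a region linked to 5 other genes. Kcnab3 was joined to an intron of Wrap53 at 244 kb, Kcnh4 to an intron of Ptrf at 208 kb and Kcnip2 to intergenic DNA at 205 kb. Of the 19, 14 shared their distal region with another gene, against 34 of the 176 calls under 25 kb. The same shares by distance were not computed over all listed genes. None of the 19 was in Hi-C, where calls of all listed genes from 100 to 500 kb were found in 2.46% of cases.

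A few potassium channel promoters took part in contacts that many neighbours shared. Kcna7 was called with a region that overlaps an exon of Gys1, the muscle glycogen synthase gene, at chr7:52711366-52712068 and 50.5 kb away. That region was linked to 25 promoters of 18 genes, the most of any called region of a potassium channel gene, and the pair was in Hi-C. Kcnh4, an ELK channel, had its 3 calls with regions in Stat5b, Stat3 and Ptrf, linked to 21, 16 and 19 promoters, among which were those of Stat3, Stat5a and Stat5b. Kcnab3 had calls with regions of 17 promoters each, 93.4 and 244 kb away, which both included Trp53. Over all potassium channel calls, however, 160 of 221 regions (72.4%) were linked to a single gene, against 66.5% of all called interactions.

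No called region was shared by neighbouring potassium channel genes, but most pairs could not share one. Only Kcnip1 with Kcnmb1 and Kcne1 with Kcne2 had calls for both genes. The sharing of called regions between neighbouring genes at large was not computed. Of the pairs whose promoters lay within 100 kb, Kcnj10 and Kcnj9, at 11.9 kb, had 5 distal regions in common in replicate 1, none in replicate 2 and 1 in Hi-C. Kcnmb1 lies within the 364 kb of Kcnip1, 29.98 kb from a Kcnip1 promoter, and 5 of its 7 called regions overlapped Kcnip1. That Kcnip1 promoter, chr11:33893076-33893364, had 1 region in replicate 1 and none in replicate 2, so it could have no call. All 13 Kcnip1 calls came from the other promoter, which lies farther from Kcnmb1. Kcnip1 and Kcnmb1 had 1 region in common in replicate 1 and 5 in replicate 2, but none was called for both. The clusters of Kv1 genes were sparse. Kcna10 had 24 regions in replicate 1, 11 in replicate 2 and 1 called, and its neighbour Kcna2 had 3 and 2 and Kcna3 had 3 and 3, with none called. On chromosome 6, Kcna1 had 7 and 3 regions and none called, and Kcna6 had 12 and 2 with 1 called. Kcnj1 with Kcnj5 and Kcnj16 with Kcnj2, further neighbours, had no call at all, and Kcne1 and Kcne2 had 1 each.

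Called regions lay about evenly on both sides of the promoters, 114 downstream and 107 upstream. They fell in the same gene in 82 cases, in another gene in 72 and between genes in 67. The region's nearest listed promoter was one of the channel gene's own in 146 of 221 (66.1%), and no other gene's promoter lay between in 170 (76.9%). Contacts over 5 or more genes numbered 9. Of the called regions, 55 (24.9%) adjoined another called region of the same promoter, most of them at Kcnk7 and Kcng4, which had 28 of the 55. Such neighbours are separate entries in the lists but one stretch of DNA. The shares in this paragraph were not computed over all called interactions, so none can be read as particular to potassium channel genes.

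Potassium channel promoters stood more often alone than promoters at large. No promoter of another listed gene lay within 50 kb of 61 of 125 (48.8%, interval 39.8 to 57.9%), against 25.1% of all listed promoters. Isolated potassium channel promoters had a call in 22 of 61 cases (36.1%, interval 24.2 to 49.4%), against 39.2% of all isolated promoters. Crowded ones, with 2 or more other genes within 50 kb, had a call in 22 of 38 (57.9%, 40.8 to 73.7%), against 60.1%. Those with 1 neighbour gene had a call in 10 of 26 (38.5%), against 46.4%. Within each kind of surroundings the value of all listed promoters lay inside the interval of the potassium channel promoters. Over all surroundings, 54 of 125 had a call (43.2%, 34.4 to 52.4%), against 51.7% of all listed promoters, and the rates of all listed promoters at the makeup of the potassium channels come to 47.1%.

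Isolated promoters could have long lists. Kcnj12, Kcnj13, Kcnk1 and the called Kcnip1 promoter were isolated and had 15, 13, 8 and 13 calls from 1 promoter each. Isolated promoters had 87 calls and crowded ones 104, of which Kcnk7 and Kcng4 gave 49. Medians of listed regions were alike, 7 in replicate 1 and 4 in replicate 2 at isolated promoters and 7 and 3.5 at crowded ones. The isolated calls spanned a median of 7301 bp and the crowded ones 9261 bp, against 8484 and 11130.5 bp over all listed promoters. Voltage-gated genes had 27 isolated and 13 crowded promoters of 48, and accessory genes 6 and 14 of 31.

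**Figure D5:**
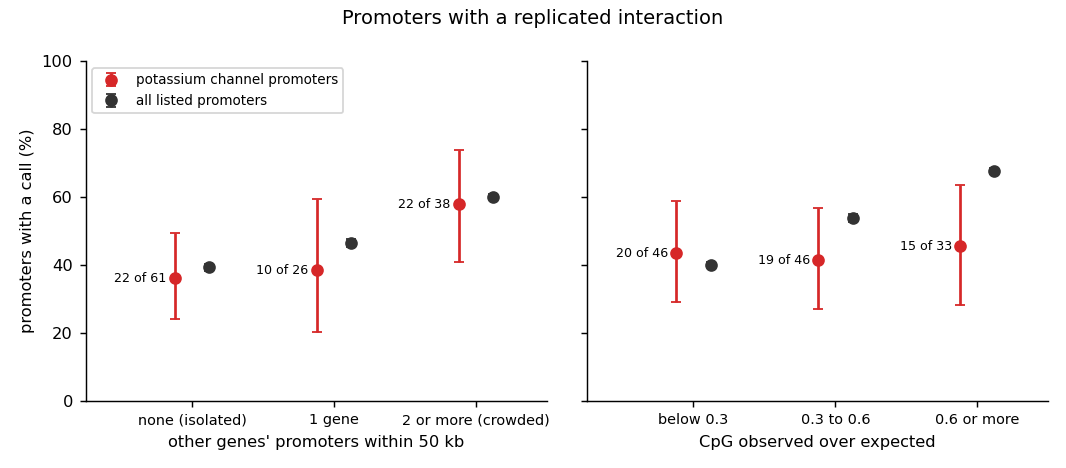
Share of promoters with a called interaction, with exact binomial 95% intervals, by the number of other genes with a promoter within 50 kb (left) and by the CpG observed over expected in 1 kb around the promoter fragment (right), for potassium channel promoters (red, with numbers) and all listed promoters (black). Potassium channel promoters follow all listed promoters from isolated (36.1%) to crowded (57.9%), and at a CpG ratio of 0.6 or more 45.5% had a call, against 67.6%, while of the crowded ones with that ratio 5 of 7 had one (71.4%, against 76.9%).

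The share of promoters with a call went up with CpG content over all listed promoters, and over the potassium channel promoters it was about level, a difference that was not tested. The CpG ratio is the number of CpG dinucleotides over that expected from the base composition, here in 1 kb around the middle of the promoter fragment, and it was examined after the calls were known. At a ratio of 0.6 or more, 15 of 33 potassium channel promoters had a call (45.5%, interval 28.1 to 63.6%), against 67.6% of all listed promoters. From 0.3 to 0.6 the share was 41.3% (27.0 to 56.8%), against 53.9%, and below 0.3 it was 43.5% (28.9 to 58.9%), against 40.1%. Only at the highest ratio was the share of all listed promoters outside the interval. Isolated potassium channel promoters had a call in 35.3% of cases below 0.3, 36.0% from 0.3 to 0.6 and 36.8% at 0.6 or more. That last share was 7 of 19 (interval 16.3 to 61.6%). Of all isolated promoters, 26.6%, 39.8% and 54.8% had a call. Among the potassium channel promoters at 0.6 or more, 57.6% were isolated, against 27.3% of all listed ones. Crowded potassium channel promoters had a call in 45% of cases below 0.3, 72.7% from 0.3 to 0.6 and 71.4% at 0.6 or more (5 of 7), against 48.7%, 62.6% and 76.9% of all crowded promoters. CpG-rich potassium channel promoters had a mean of 9.48 regions in replicate 1 and 11.8 in replicate 2, against 24.7 and 27.3 over all listed promoters with that ratio.

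Kcng4 and Kcnmb4 are shown as a CpG-poor gene with many calls and the gene with the highest CpG ratio, both chosen after their values were seen. They are no sample of the range, since 7 genes had a lower ratio than Kcng4 and 0 to 7 calls each, among them Kcnj15 with a ratio of 0.112 and none. Kcnmb4 is a BK beta subunit of the brain, with 5 regions in replicate 1, 7 in replicate 2 and none called. Each sequence is the 250 bases before the start in RefSeq on GRCm38.p6, on the strand of the gene, with CpG in capitals. Kcng4, with 22 calls, has 4 CpG and Kcnmb4 has 43. Over the 67 members with a RefSeq promoter the median was 8, and over all 32851 RefSeq promoters, 92.1% of which have a CpG, it was 6. The presence of CpG here says nothing of a factor bound there.
Kcng4, chr8:119635681-119635930: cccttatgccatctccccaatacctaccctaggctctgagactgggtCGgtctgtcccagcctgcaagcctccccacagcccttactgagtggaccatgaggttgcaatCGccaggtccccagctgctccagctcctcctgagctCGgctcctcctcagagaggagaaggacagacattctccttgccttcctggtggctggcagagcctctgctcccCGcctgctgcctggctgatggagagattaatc
Kcnmb4, chr10:116473524-116473773: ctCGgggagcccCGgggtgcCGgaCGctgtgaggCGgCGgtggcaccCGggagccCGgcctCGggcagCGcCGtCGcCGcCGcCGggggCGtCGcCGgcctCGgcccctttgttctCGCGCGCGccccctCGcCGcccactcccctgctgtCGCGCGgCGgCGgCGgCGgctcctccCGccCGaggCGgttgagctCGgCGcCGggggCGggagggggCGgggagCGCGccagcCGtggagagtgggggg

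Hi-C held some of the same contacts. The pooled Hi-C list had 286 interactions at 71 of the potassium channel genes, most at Kcnj12 (19), Kcnmb1 (12), Kcnu1 (12) and Kcng4 (11). Of the 221 called interactions 23 were in Hi-C (10.4%, interval 6.71 to 15.2%), against 12.5% of all called interactions. They came from 10 genes, with 6 at Kcnk7, 5 at Kcnk6, 3 at Kcng4, and 2 each at Kcnj12 and Kcnmb1. Two-pore domain genes thus had 11 of the 23 and 21.6% of their calls in Hi-C (interval 11.3 to 35.3%), while the calcium- or sodium-activated genes had none of 17. Read the other way, 206 of the 286 Hi-C interactions (72.0%, 66.4 to 77.2%) were in neither HiCap list, against 60.6% over all listed genes.

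The share in Hi-C differed with surroundings and distance. Crowded potassium channel promoters had 18 of 104 calls in Hi-C (17.3%, interval 10.6 to 25.97%), against 13.8% of calls at all crowded promoters. Isolated ones had 3 of 87 (3.45%, 0.717 to 9.75%), against 8.70%. Kcnk7, Kcnk6 and Kcng4 gave 14 of the 18. From 5 to 10 kb, 11 of 50 calls were in Hi-C (22.0%, 11.5 to 36.0%), against 15.8%, and from 1 to 5 kb 6 of 70 (8.57%, 3.21 to 17.7%), against 20.7%. From 10 to 25 kb 3 of 56 were in Hi-C, against 9.61%, from 25 to 100 kb 3 of 26, against 4.79%, and from 100 to 500 kb none of 17, against 2.46%. In the nearest range the interval ended below the share of all called interactions. Counting regions within 1 kb as the same raised the share of potassium channel calls in Hi-C to 27.4%, of 558 calls.

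Other ion channel families, chosen by symbol, give a scale. A call was found for 5 of 11 sodium channel genes, 14 of 26 calcium channel genes, 2 of 3 HCN genes, 16 of 22 TRP genes and 6 of 9 chloride channel genes. The 50.6% of potassium channel genes lay between the 45.5% of sodium and the 53.8% of calcium channels, and the TRP channels, which respond to temperature and chemicals among other cues, had 72.7% (interval 49.8 to 89.3%). The called regions of potassium channels (median 9002 bp) were nearer than those of calcium channels (14555.8 bp) and farther than those of sodium channels (7309.5 bp). These differences were not tested.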

How the data were processed

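The values are positions. The deposited lists give mm9 positions for each named promoter fragment and its distal partner, without read numbers or normalisation, so depth is unknown. The authors mapped reads with HiCUP and Bowtie, discarded pairs under 1 kb apart and kept HiCap pairs seen by 3 or more read pairs. The minimum for Hi-C is not given in the sources used here. Capture-C samples were not analysed here.

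Distinct promoter and distal fragments were matched as pairs between lists with pandas 2.3.3, and intervals came from SciPy 1.17.1 under Python 3.11.15. Matching was tested on simulated data. Distance ran between midpoints. Genes, exons and starts came from GENCODE on mm9 without pseudogenes, and bases from that genome. With 2 replicates of 1 condition no test between groups was possible. Named genes were the 10 with the most calls, the 3 with the most in each class, the 3 with the most listed regions in each replicate, those of the 5 longest calls, the 5 with the most calls in Hi-C, neighbours within 100 kb and those of the 5 most-linked regions. Of these, 1 is counted in the totals but not reported by name here. Genes without a call and CpG content were added after values were seen. Alternatives were matches within 1 kb, the authors' combined list, distances over 15 kb, each replicate alone, matching by gene, other windows and other placing of accessory genes. Members and lists were chosen with earlier results of these data known.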

Additional observations from a re-analysis of the deposited data

How the results depend on the processing

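No paired analysis was possible because the replicates are of a single condition and no test between groups was made. Of 56 values under the 7 alternatives that kept both replicates, 39 stayed within the interval of the main value or, for counts, within 1.5 times it. Matching by gene, the authors' combined list and windows of 25 and 100 kb moved none, and nor did placing accessory subunits with their channels, which leaves no accessory class to count. The authors called interactions on support in both replicates, as here, and their list also held 221 for these genes. Its unmoved values are therefore no separate check.

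Interactions over 15 kb, which are fewer by construction, gave 67 calls, a median of 48036 bp, a called share of 29.2% of genes (41.3% of all listed genes), 25% of two-pore domain genes, 16.4% of isolated and 39.5% of crowded promoters, 4.48% in Hi-C, and 9.52% and 4.33% of the interactions of replicates 1 and 2 shared. Matches within 1 kb, which admit more pairs by construction, gave 558 calls, 71.9% of genes (69.2% of all listed genes) and 27.4% in Hi-C. They gave 60.5% of voltage-gated genes, 80.0% of inward rectifier genes and 57.4% of isolated promoters. Of the interactions of replicates 1 and 2, 40.4% and 24.4% were shared, against 48% in replicate 1 over all listed genes.

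Leaving out a replicate, so that the other's whole list counts, gave 1382 to 1961 interactions, medians of 15670.5 to 133851 bp and 2.24 to 4.27% in Hi-C. The share of genes was then 93.3 to 96.6%, with 89.5 to 97.4% of voltage-gated, 100 to 100% of inward rectifier, 83.3 to 100% of two-pore domain, 100 to 100% of calcium- or sodium-activated and 87.5 to 100% of accessory genes, and 83.6 to 91.8% of isolated and 89.5 to 94.7% of crowded promoters. Of these 22 values 20 moved. A call then means only that a gene or promoter is in the remaining list, and members were those in either list. The shares of genes and promoters are therefore high by construction, and they are no check on the shares by class and surroundings. Read numbers are not in the lists, so a region missing from a list cannot be told from one just under the minimum.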

Other observations

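Across the 89 potassium channel genes, a higher CpG ratio went with fewer distal regions, while over all listed genes it went with more. Spearman's rank correlation between the ratio and the number of distal regions was -0.30 in replicate 1, -0.36 in replicate 2, -0.19 for called regions and -0.30 in Hi-C, against 0.23, 0.24, 0.20 and 0.10 over 21196 genes. The 4 lists share promoter fragments and their base composition, and genes with several promoters enter with the mean ratio, so these values are descriptions. The G+C content of the surroundings had a rank correlation of 0.12 with distal regions in replicate 1 and -0.02 in replicate 2. For called regions it was 0.22 and in Hi-C 0.47. Over all listed genes these values were 0.25, 0.23, 0.33 and 0.36, so only in Hi-C were the potassium channel genes higher. The rank correlation between replicate 1 and replicate 2 was 0.59, against 0.70, and between the number of neighbour genes and called regions 0.30, against 0.28.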
